A study of Mus musculus with 23 samples.

Results

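Slpi, Vstm4, Hs3st2, Slco2b1, Paqr9, Snx31, Ubd, Ear2, Sh2d1b1 and Glipr1 are 10 genes that were strongly lower in macrophages of one or more genotypes of this series. They were chosen by name from the measured genotype differences of these same libraries, so their genotype values below are a description and carry no test. They make up 10 of the 22524 genes in the first table of values and 10 of the 25700 genes in the other. All 10 passed the filter on low values in both tables, which their control groups alone satisfied.

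The data are messenger RNA profiles of macrophages from C57BL/6 mice, with 1000 cells sorted by flow cytometry for each of 23 libraries in 8 groups. The first table holds red pulp macrophages of the spleen (RPM) and bone marrow macrophages (BMM) of pups at day 7, wild type (RPM_d7_WT and BMM_d7_WT) or with the genotype label vavCre (RPM_d7_vavCre and BMM_d7_vavCre), 3 libraries each. In vavCre mice, regulatory sequence of Vav, a gene active in blood-forming cells, drives the Cre recombinase. The other table holds spleen macrophages only. Day-7 pups labelled Spic_WT (RPM_d7_Spic_WT, 3 libraries) were set against pups labelled Spic_KO (RPM_d7_Spic_KO, 2 libraries). Adults labelled WT (RPM_TAM_WT, 2 libraries) were set against adults labelled TAM_CreERT2 (RPM_TAM_CreERT2, 4 libraries). CreERT2 is a Cre that tamoxifen activates. TAM, which the names of both adult groups carry, is not spelled out in the labels. The labels do not name the gene that either Cre deletes. The series describes the few remaining macrophages that lack Pparg. No label states whether replicates came from separate animals, so the spread between libraries may in part be technical.

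PPARγ, the product of Pparg, is a nuclear receptor for fatty acids and their derivatives that binds DNA together with RXR. SPIC is a transcription factor of the ETS family that is needed for red pulp macrophages. Red pulp macrophages take up aged red cells in the spleen and recycle their iron, and the macrophages of erythroblastic islands in the marrow support maturing red cells. Among the 10 genes, Slpi and Ear2 encode secreted proteins, and Glipr1 a protein of a superfamily with secreted and membrane-anchored members. The others encode proteins of the surface and the secretory pathway (Vstm4, Slco2b1, Paqr9 and Hs3st2) and proteins of the cytoplasm (Sh2d1b1, Ubd and Snx31).

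RefSeq promoter windows of GRCm38.p6, from 250 bases before to 50 bases after a gene's start, matched 7 of the 10 genes (9 windows). Paqr9, Snx31 and Glipr1 had none. The windows were searched on both strands for the nuclear receptor half-site AGGTCA, for a pair of such half-sites in the same direction with 1 base between them (DR1, the element type that PPAR and RXR bind), and for GAGGAA, a core that ETS factors such as SPIC bind. AGGTCA was in 0 of the 9 windows, against 16.26% of the 32851 windows of all genes, and DR1 in 0 of 9, against 0.04%. GAGGAA was in 5 windows of 3 genes, against 28.28% of all windows. These were Hs3st2, Sh2d1b1 and all 3 windows of Slco2b1. Levels in the Spic_KO libraries are given for examples with and without GAGGAA, and the part of GAGGAA in them was not tested. Hs3st2 has it, 145 bases before the start, and held 0 reads there. Ear2 has none and held 377.5 and 592.9 there. Ubd has none and held 0 reads there. The promoters shown are examples that leave out Hs3st2, Ear2 and Ubd. Below are the 250 bases upstream of the start of Slpi and Vstm4, which held 0 and 9 reads in the Spic_KO libraries, and of Slco2b1 and Sh2d1b1, which those libraries still held. Each is written 5′ to 3′ on the gene's own strand, from chr2:164356508-164356757 (minus), chr14:32856506-32856755 (plus), chr7:99711341-99711590 (minus) and chr1:170277068-170277317 (plus), in that order. Capitals mark GAGGAA in Sh2d1b1, whose first base lies 45 bases before the start. The match of this Slco2b1 window lies 6 bases after the start and is not in the bases shown. The start used for Slpi is that of RefSeq and lies inside the longer gene span given for Slpi below.
Slpi: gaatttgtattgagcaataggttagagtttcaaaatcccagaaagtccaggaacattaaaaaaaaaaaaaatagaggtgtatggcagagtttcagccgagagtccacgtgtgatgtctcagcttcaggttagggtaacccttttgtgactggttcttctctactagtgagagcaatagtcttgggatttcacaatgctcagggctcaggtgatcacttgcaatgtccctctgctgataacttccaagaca
Vstm4: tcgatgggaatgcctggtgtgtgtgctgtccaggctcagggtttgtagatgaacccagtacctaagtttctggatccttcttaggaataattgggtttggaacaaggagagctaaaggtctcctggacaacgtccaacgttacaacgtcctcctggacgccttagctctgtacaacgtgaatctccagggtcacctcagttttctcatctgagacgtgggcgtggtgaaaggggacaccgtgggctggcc
Slco2b1: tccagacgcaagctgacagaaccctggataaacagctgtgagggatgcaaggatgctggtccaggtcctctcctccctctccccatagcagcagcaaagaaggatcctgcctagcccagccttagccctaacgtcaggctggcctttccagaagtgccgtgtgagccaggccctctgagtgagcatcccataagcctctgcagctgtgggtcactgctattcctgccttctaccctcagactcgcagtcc
Sh2d1b1: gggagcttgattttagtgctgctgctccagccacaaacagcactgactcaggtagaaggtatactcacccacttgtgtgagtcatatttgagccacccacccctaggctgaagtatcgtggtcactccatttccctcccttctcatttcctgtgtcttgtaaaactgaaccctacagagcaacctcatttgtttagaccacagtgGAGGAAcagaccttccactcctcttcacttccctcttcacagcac
A match of letters is a description and shows neither a bound site nor a cause, and the absence of a match says only that these letters are not in the window.

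Libraries of the first table held 4.26 to 21.7 M reads and those of the other 0.693 to 6.29 M, with the fewest in RPM_TAM_CreERT2. Levels are normalised read counts, and each table has its own scale, so levels were compared within a table only. Pparg was not lower in the libraries labelled vavCre (3037 ± 838 against 1788 ± 299 in spleen, 2291 ± 606 against 1636 ± 57.8 in marrow) or in those labelled TAM_CreERT2 (229.7 ± 35.5 against 130.0 ± 53.4). In each case all Cre libraries lay above all their control libraries for Pparg. The value is summed over the gene, so it cannot show the loss of an exon and checks none of these labels. Spic was 1084 ± 216 in RPM_d7_Spic_KO and 2435 ± 594 in RPM_d7_Spic_WT, and Pparg was 23.9 ± 3.04 and 254 ± 66.3, both without overlap. Spic was also lower, with no overlap, in RPM_d7_vavCre (9260 ± 801, against 14970 ± 1026) and RPM_TAM_CreERT2 (762 ± 243, against 1176.5 ± 98.3). In marrow Spic overlapped (5524 ± 646 in BMM_d7_vavCre, against 5957 ± 881). All 12 listed macrophage markers were detected in each of the 8 groups. Their summed share of a library's total was lower, with no overlap, in RPM_d7_Spic_KO (1.18 to 1.32%, against 2.04 to 2.87% in RPM_d7_Spic_WT) and in BMM_d7_vavCre (1.77 to 1.82%, against 1.97 to 2.34% in BMM_d7_WT). It overlapped in RPM_d7_vavCre (2.38 to 2.75%, against 2.58 to 2.91%) and in RPM_TAM_CreERT2 (1.72 to 1.95%, against 1.56 to 1.98%). The 7 erythroid markers made up 0.919 to 1.44% in RPM_d7_WT and 0.444 to 0.632% in RPM_d7_vavCre. They made up 1.06 to 1.53% and 0.389 to 0.601% in the marrow groups. In adults they made up 4.03 to 6.05% in RPM_TAM_WT and 6.59 to 10.6% in RPM_TAM_CreERT2, ranges that do not overlap. The 7 monocyte markers summed to 316 to 689 in RPM_d7_vavCre, against 821 to 920 in RPM_d7_WT, and to 319 to 633 against 799 to 1111 in marrow. The 5 endothelial markers, led by Pecam1, summed to 539 to 601 against 944 to 1356 in spleen and to 215 to 228 against 286 to 414 in marrow. The 9 B cell markers were lower without overlap in BMM_d7_vavCre (1312 to 3014, against 3839 to 10860) and in RPM_TAM_CreERT2 (478 to 620, against 933 to 1034). The part of these marker differences in the results was not tested. In bulk libraries, fewer cells of a type and less RNA per cell cannot be told apart.

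Below, ± after a level is the SD over the libraries of a group, and ± after a log2 change is its standard error in the fit of log2(value + 1), a scale that understates the change of low genes. In the vavCre spleen libraries 9 of the 10 genes had a log2 change of -2 or lower, where 3.38% of the 15130 genes tested did, and all 10 lay below the lowest wild-type library, where 12.4% of genes did. The 10 values ran from -6.54 (Sh2d1b1) to -1.99 (Glipr1), with a median of -4.70 beside -0.02 for all genes. In marrow 8 of 10 reached -2 (6.33% of genes), 9 of 10 did not overlap wild type (10.9%), and the median was -4.60 beside -0.04. In RPM_d7_Spic_KO 5 of 10 reached -2 (7.58% of the 16650 genes tested), 9 of 10 did not overlap (19.4%), and the median was -2.68 beside 0. In RPM_TAM_CreERT2 7 of 10 reached -2 (2.76%), 9 of 10 did not overlap (7.6%), and the median was -2.28 beside 0. The count in adults went from 7 to 4 without RPM_TAM_WT replicate 1. Since these contrasts chose the genes, nothing is read from the counts.

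**Figure D1:**
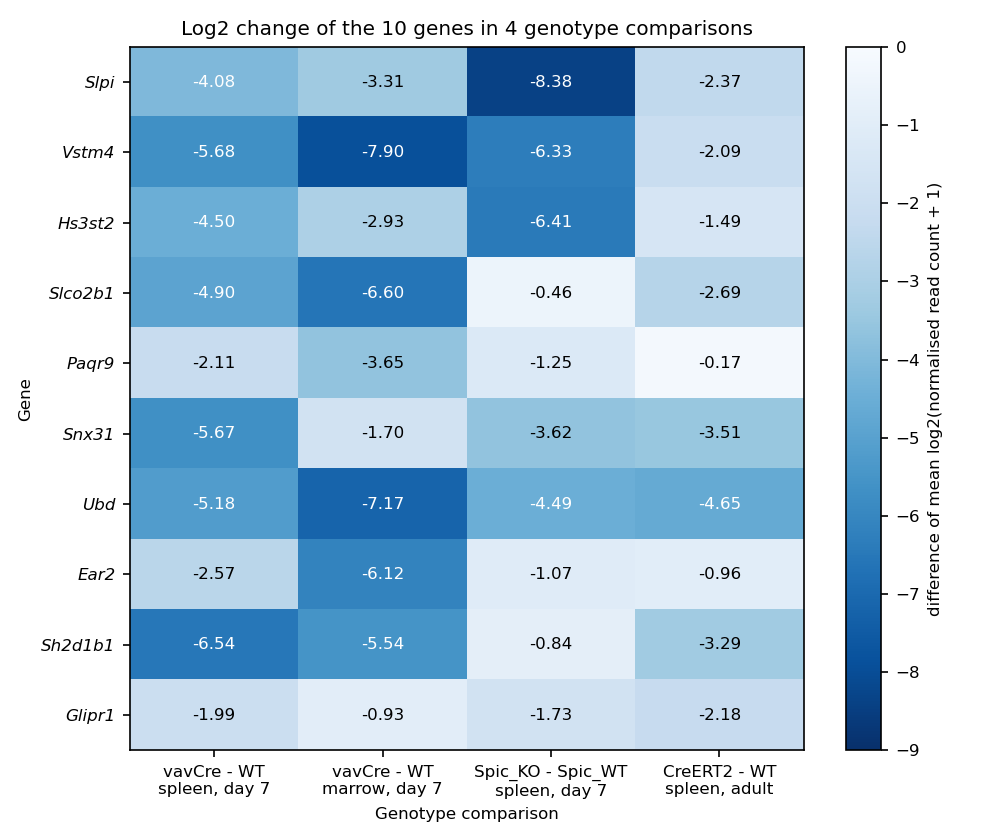
Log2 change of the 10 genes (rows) in the 4 genotype comparisons (columns), as differences of the mean log2(normalised read count + 1), darker for lower values. Slpi, Vstm4 and Ubd were at -2 or lower in all 4 columns, while Slco2b1 was at -0.46 in the Spic_KO column and Paqr9 at -0.17 in the adult column.

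The genes did not share 1 pattern over the 4 genotype comparisons, as the map of log2 changes shows. Slpi, Vstm4 and Ubd, 3 genes, were at -2 or lower in all 4. Another 4 genes were so in 3 of them, namely Hs3st2 (all but the adults), Snx31 (all but the marrow), and Slco2b1 and Sh2d1b1 (all but Spic_KO). Paqr9 and Ear2 were so in both vavCre comparisons only, and Glipr1 in the adults only. Some of these values lay near -2, so the grouping is not firm. Glipr1 was at -1.99 in vavCre spleen. Without RPM_TAM_WT replicate 1, the adult values of Slpi, Vstm4 and Glipr1 were -1.95, -1.69 and -1.70. The marrow value of Snx31, -1.70, came from 1 read against 12, near the floor, where log2(value + 1) understates a change. Its place outside -2 there is therefore uncertain. No 2 of the 4 comparisons share a library.

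Slpi (ENSMUSG00000017002, chromosome 2, 164354070 to 164389095, minus strand, GRCm38) encodes the secretory leukocyte peptidase inhibitor, which blocks elastase and cathepsin G of neutrophils. Wild-type spleen libraries of the first table held 1058, 1235 and 1289 (1194 ± 121), and vavCre spleen libraries 90.2, 62.7 and 59.5 (70.8 ± 16.9). In marrow, wild type held 40.2, 120 and 19.9, and vavCre 6.28, 0 and 13.6. The groups did not overlap in either tissue (log2 change -4.08 ± 0.82 in spleen and -3.31 ± 0.82 in marrow). With 1 library left out, the marrow value of Slpi ran from -4.12 (without BMM_d7_vavCre replicate 3) to -2.19 (without BMM_d7_vavCre replicate 2, at 0). The vavCre spleen libraries lay within the range of wild-type marrow. In the other table, RPM_d7_Spic_WT held 275.5, 251.9 and 526.6 and both RPM_d7_Spic_KO libraries held 0 reads. With a floor of 3 reads per library, that is at least 230.1-fold lower, a bound that covers counting error only. The adult controls held 2622 and 1469, the highest levels of the table, and the 4 RPM_TAM_CreERT2 libraries 430.5, 347.9, 381 and 359.6. That is a log2 change of -2.37 ± 0.36, and the CreERT2 libraries lay inside the range of the pup controls. Neutrophils also make Slpi, and the 11 neutrophil markers summed to 322 to 2427 in RPM_d7_WT and to 2542 to 5658 in RPM_d7_vavCre. In marrow they summed to 973 to 4290 in BMM_d7_WT and 1320 to 2064 in BMM_d7_vavCre, ranges that overlapped. In the other table they summed to 10.5 to 255 in RPM_d7_Spic_KO and 28.8 to 59.6 in RPM_d7_Spic_WT. They summed to 126 to 689 in RPM_TAM_CreERT2 and 23.7 to 993 in its controls. The part of these neutrophil markers in the Slpi values was not tested.

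**Figure D2:**
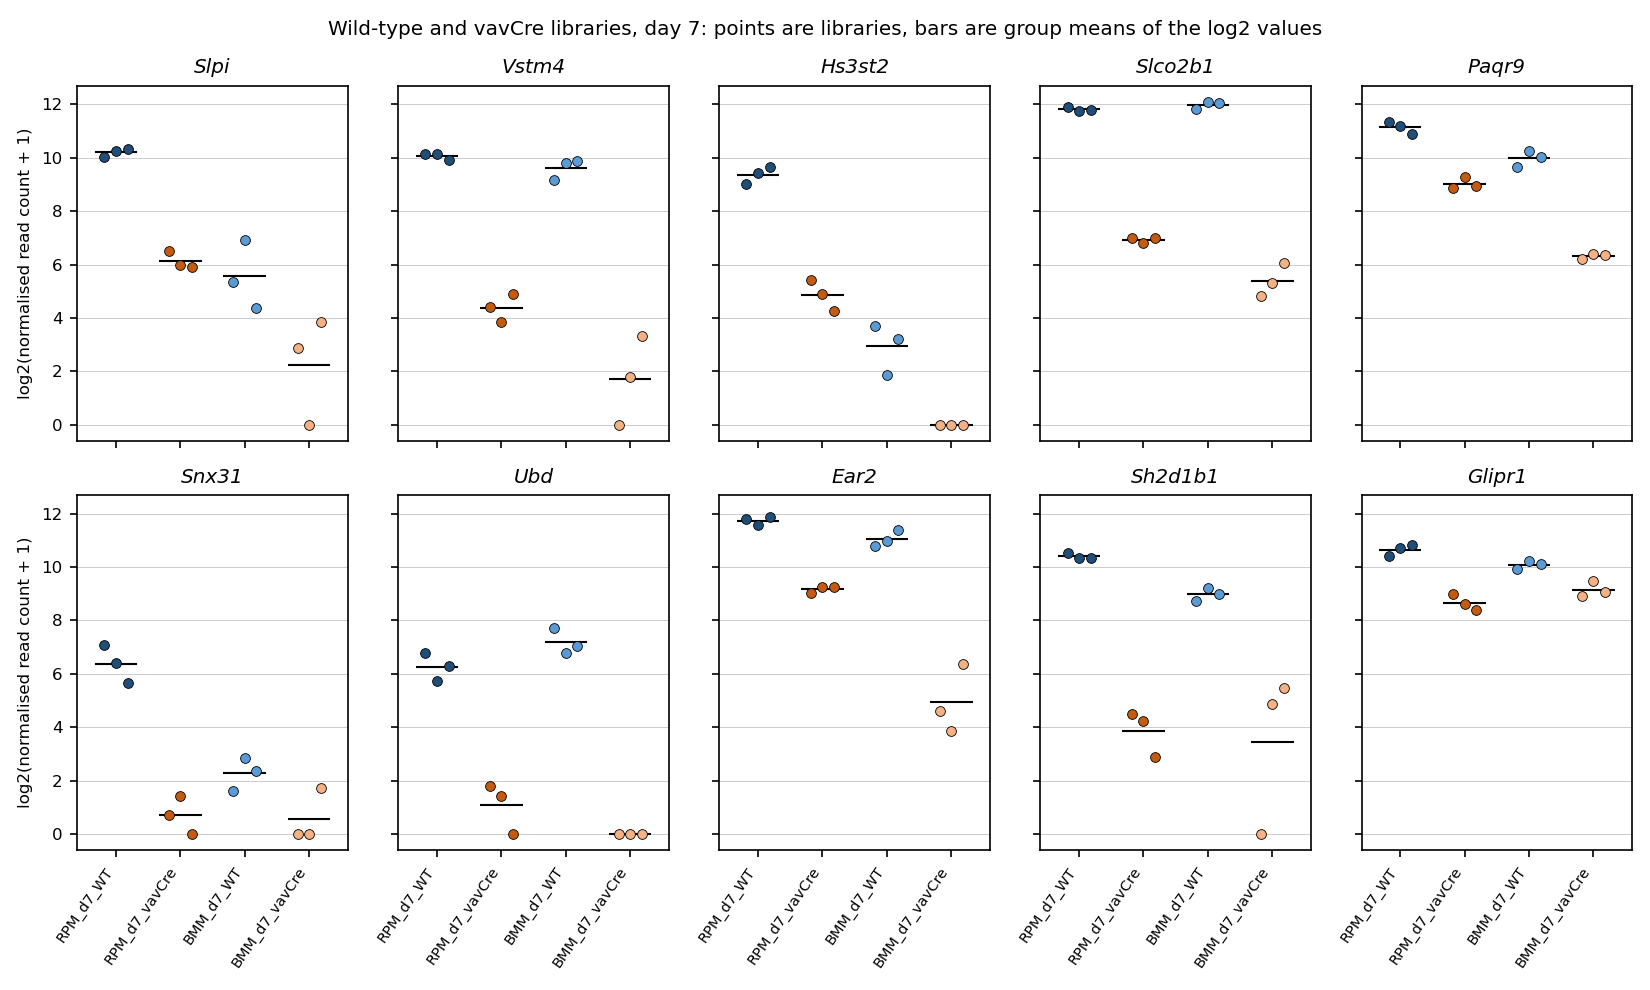
Log2(normalised read count + 1) of each gene (panels) in the 12 day-7 libraries of the first table, by group. Points are libraries and bars are group means of the log2 values. Hs3st2 and Ubd were at 0 in all 3 vavCre marrow libraries, and Glipr1 had the smallest differences between wild type and vavCre.

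Ear2 (ENSMUSG00000072596, chromosome 14, 44102654 to 44103534, plus strand) encodes a secreted ribonuclease of the RNase A family, named for its presence in eosinophils. Per kilobase of exon it was the highest of the 10 genes in wild-type spleen (4774) and wild-type marrow (2988). Wild-type spleen held 3526, 3060 and 3712, and vavCre spleen 525.9, 604.5 and 602.9. Wild-type marrow held 1760, 2019 and 2666, and vavCre marrow 23.0, 13.3 and 81.5. The 4 groups did not overlap, and their order was wild-type spleen, wild-type marrow, vavCre spleen and vavCre marrow. The log2 change was -2.57 ± 0.41 in spleen and -6.12 ± 0.41 in marrow (-6.83 without BMM_d7_vavCre replicate 3). Of the 5 eosinophil markers, Epx was at 0 in RPM_d7_WT, RPM_d7_vavCre and BMM_d7_WT. Their sum was 20.9 to 51.7 in RPM_d7_vavCre and 23.3 to 39.2 in RPM_d7_WT. In marrow it was 0 to 1.21 in BMM_d7_vavCre, lower without overlap than the 6.03 to 74.2 of BMM_d7_WT. The part of these markers in the Ear2 values was not tested. RPM_d7_Spic_WT held 1037, 851.4 and 1114, and RPM_d7_Spic_KO 377.5 and 592.9 (-1.07 ± 0.33). RPM_TAM_WT held 196.8 and 393.9, and RPM_TAM_CreERT2 134, 175.1, 111 and 158 (-0.96 ± 0.32). Both pairs of groups were apart, but by less than the vavCre groups.

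Ear2 lies in a cluster of near copies on chromosome 14, so its reads may be shared out between them. Of the 50-base stretches of its transcripts, 23.6% also occur in Ear1, 26.0% in Ear10, 1.34% in Ear6 and 0 in Ear14. In the first table Ear1 was at 0 in 9 of 12 libraries, and its highest value was 2.26. In the other table every library held Ear1, with a mean of 73.7 ± 10.7 in RPM_d7_Spic_WT, 159 ± 43.3 in RPM_d7_Spic_KO, 146 ± 106 in RPM_TAM_WT and 189 ± 50.3 in RPM_TAM_CreERT2. Ear1 thus made up 6.95 ± 1.39% of the sum of Ear1 and Ear2 in RPM_d7_Spic_WT and 24.8 ± 0.82% in RPM_d7_Spic_KO. It made up 52.8 and 15.2% in the adult controls and 56.4 ± 2.21% in RPM_TAM_CreERT2. The sum of both genes was 1075 ± 132 in RPM_d7_Spic_WT and 644.5 ± 196 in RPM_d7_Spic_KO, and 441 ± 33.3 and 334 ± 77.9 in the adult groups, where it overlapped. Ear1 itself did not pass the test in either comparison (limma adjusted p = 0.195 for Spic_KO and 0.771 for the adults). Ear10 held at most 11.65 in a library of the other table. How reads of the near copies were assigned is not given in the sources used here. The Ear2 level is therefore uncertain in both tables, also in the first, where Ear1 was at or near 0.

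**Figure D3:**
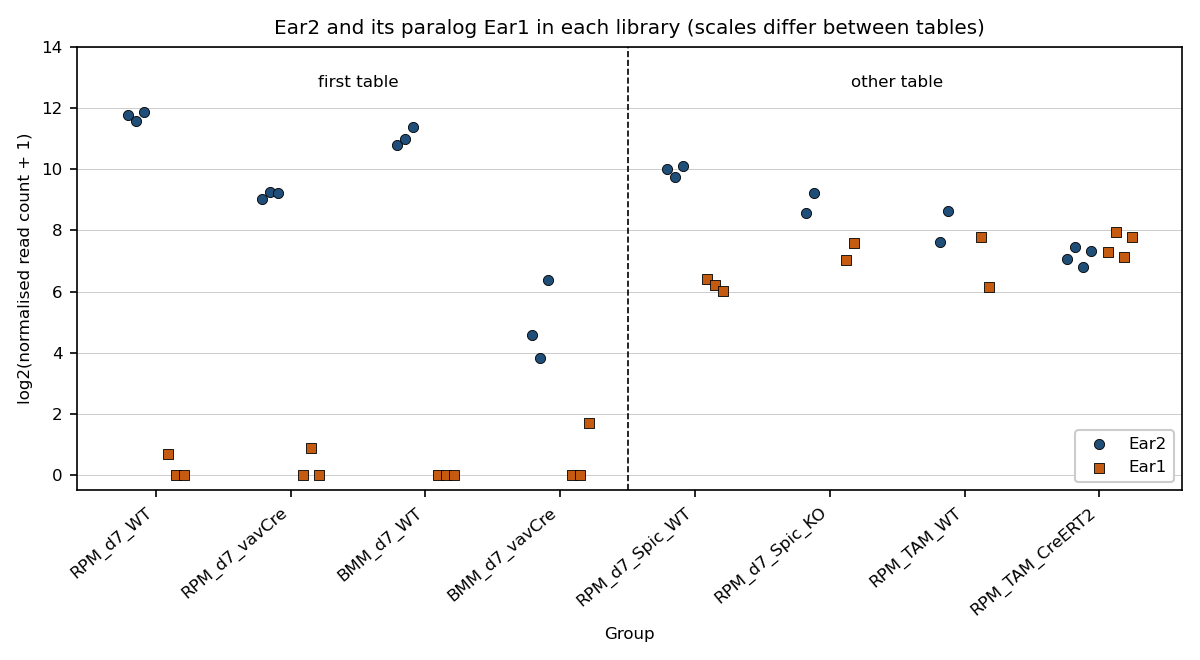
Log2(normalised read count + 1) of Ear2 (circles) and Ear1 (squares) in each library of the 8 groups, with a dashed line between the tables, whose scales differ. Ear1 was at or near 0 throughout the first table and at 63.1 or more in every library of the other, also in day-7 control spleen.

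Glipr1 (ENSMUSG00000056888, chromosome 10, 111985448 to 112002631, minus strand) encodes a protein of the CAP superfamily of secreted and membrane-anchored proteins. It was the gene with the smallest vavCre differences. Wild-type spleen held 1371, 1679 and 1810, and vavCre spleen 507.5, 394.2 and 332.4 (-1.99 ± 0.21). Wild-type marrow held 961.2, 1185 and 1107, and vavCre marrow 485.6, 704.2 and 529.6 (-0.93 ± 0.21). Wild type and vavCre did not overlap in either tissue, and the vavCre groups of both tissues overlapped each other. In RPM_d7_Spic_WT it held 354.9, 208.1 and 269.9, against 53.1 and 123.7 in RPM_d7_Spic_KO (-1.73 ± 0.45). Without Spic_KO replicate 1 the Glipr1 value was -1.13, and without replicate 2 it was -2.33. In adults it held 301.3 and 154.5 in controls and 39.8, 53.2, 48.9 and 46.2 in RPM_TAM_CreERT2 (-2.18 ± 0.42). An exon of Glipr1 overlaps Krr1 on the opposite strand. Whether reads were counted by strand is not given in the sources used here, and reads there cannot be assigned.

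Vstm4 (ENSMUSG00000050666, chromosome 14, 32856756 to 32939491, plus strand) encodes a membrane protein with an immunoglobulin V-set domain. Wild-type spleen held 1122, 1140 and 956.4, and vavCre spleen 20.3, 13.6 and 28.6. Wild-type marrow held 569.1, 885.7 and 930.2, and vavCre marrow 0, 2.42 and 9.05, from 6 reads in all. The 4 groups did not overlap, and both wild-type groups were far above both vavCre groups (log2 change -5.68 ± 0.65 in spleen and -7.90 ± 0.65 in marrow). The marrow value of Vstm4 was -7.05 without BMM_d7_vavCre replicate 1 and -8.72 without replicate 3. RPM_d7_Spic_WT held 222.7, 165 and 186.1, and RPM_d7_Spic_KO 0 and 4.66 (-6.33 ± 0.71). Without Spic_KO replicate 1, at 0, the value was -5.08, and without replicate 2 it was -7.58. From pooled reads that is a ratio of 85.0, with a 95% counting interval of 44.7 to 186. Adult controls held 191.1 and 110.3, the first within the range of the pup controls, and RPM_TAM_CreERT2 held 61.3, 17.7, 46.1 and 24.4 (-2.09 ± 0.67). Summed stromal markers (7 genes) ran from 168 to 874 in RPM_d7_vavCre and 138 to 1771 in RPM_d7_WT, from 1996 to 4947 in BMM_d7_WT and 856 to 3056 in BMM_d7_vavCre, and their part in the Vstm4 values was not tested.

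Slco2b1 (ENSMUSG00000030737, chromosome 7, 99657804 to 99711340, minus strand) encodes an organic anion transporter that takes up steroid conjugates and other organic anions. Wild-type spleen held 3861, 3433 and 3572, and wild-type marrow 3650, 4346 and 4283, ranges that overlapped. In vavCre it held 125.2, 111.1 and 125.3 in spleen and 27.2, 38.8 and 65.6 in marrow. Replicates were close, and the log2 changes of -4.90 ± 0.26 and -6.60 ± 0.26 had among the smallest standard errors of the 10 genes. RPM_d7_Spic_WT held 603.9, 422.2 and 485.8, and RPM_d7_Spic_KO 291.9 and 446.5. It was the only one of the 10 genes whose Spic groups overlapped (-0.46 ± 0.56). Adult controls held 124.1 and 181.9, and RPM_TAM_CreERT2 25.0, 33.2, 45.2 and 6.42 (-2.69 ± 0.53). The antisense genes Gm15635 and Gm34280 overlap its exons, so without strand their reads cannot be told apart from its own.

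Paqr9 (ENSMUSG00000064225, chromosome 9, 95559657 to 95568023, plus strand) encodes a membrane protein of the progestin and adipoQ receptor family. Wild-type spleen held 2583, 2353 and 1918, and vavCre spleen 462.7, 629.1 and 494.2 (-2.11 ± 0.23). Wild-type marrow held 800.4, 1232 and 1045, and vavCre marrow 73.3, 83.6 and 81.5 (-3.65 ± 0.23). No 2 of these 4 groups overlapped, in the order wild-type spleen, wild-type marrow, vavCre spleen, vavCre marrow. RPM_d7_Spic_WT held 383.7, 297.1 and 396.5, and RPM_d7_Spic_KO 111.1 and 200.8 (-1.25 ± 0.34). Adult controls held 432.8 and 278.2, and RPM_TAM_CreERT2 340.7, 265.9, 240.8 and 410.9. Paqr9 was the only one of the 10 genes whose adult groups overlapped (-0.17 ± 0.33), and its change had a positive sign without RPM_TAM_WT replicate 1 (0.14).

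Hs3st2 (ENSMUSG00000046321, chromosome 7, 121391859 to 121501770, plus strand) encodes a Golgi enzyme that adds 3-O-sulfate groups to heparan sulfate. Wild-type spleen held 512.4, 695.5 and 801.3, and vavCre spleen 42.4, 28.8 and 18.3 (-4.50 ± 0.82). Wild-type marrow held 12.1, 2.63 and 8.36, below every vavCre spleen library, and the vavCre marrow libraries held 0 reads. From only 17 reads in wild-type marrow, that is at least 1.38-fold lower, so the marrow gives little precision. RPM_d7_Spic_WT held 106.2, 73.9 and 76.1, and both RPM_d7_Spic_KO libraries held 0 reads, at least 55.9-fold lower. Adult controls held 129.8 and 133.1, and RPM_TAM_CreERT2 61.3, 51.0, 53.6 and 27.0 (-1.49 ± 0.59). The antisense gene Gm36736 overlaps an exon of Hs3st2.

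**Figure D4:**
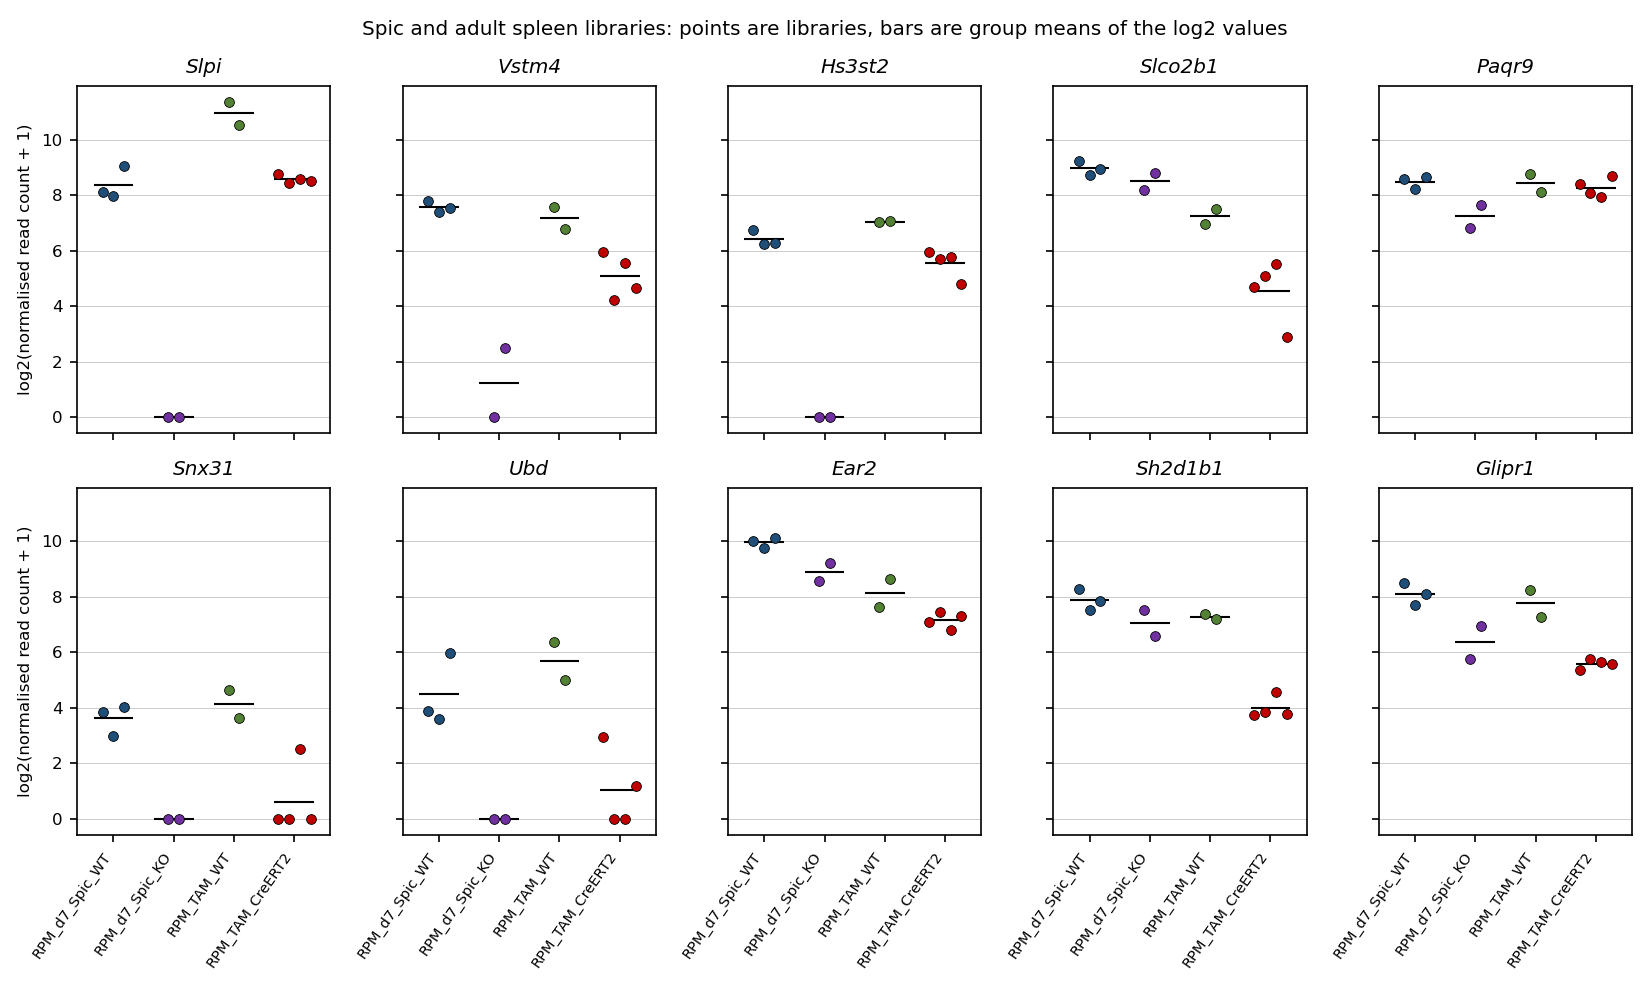
Log2(normalised read count + 1) of each gene (panels) in the 11 spleen libraries of the other table, by group. Points are libraries and bars are group means of the log2 values. Slpi, Hs3st2, Snx31 and Ubd were at 0 in both RPM_d7_Spic_KO libraries, while Slco2b1 overlapped its controls there and Paqr9 overlapped its controls in adults.

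Sh2d1b1 (ENSMUSG00000102418, chromosome 1, 170277320 to 170286769, plus strand) encodes EAT2, an adaptor with an SH2 domain that binds the cytoplasmic tails of SLAM family receptors and is best known from natural killer cells. Wild-type spleen held 1485, 1291 and 1293, and vavCre spleen 21.5, 17.8 and 6.35 (-6.54 ± 0.94), the lowest log2 change of the 10 genes in that comparison. Wild-type marrow held 424.3, 595.7 and 507.9, and vavCre marrow 0, 27.9 and 43 (-5.54 ± 0.94). The marrow value of Sh2d1b1 was -3.83 without BMM_d7_vavCre replicate 1, the library at 0, and as low as -6.56 without replicate 3. The vavCre groups of the tissues overlapped each other. RPM_d7_Spic_WT held 308.6, 184.3 and 229.1, and RPM_d7_Spic_KO 181.2 and 94.2 (-0.84 ± 0.48), just under the lowest control. Adult controls held 164.1 and 145, and RPM_TAM_CreERT2 12.5, 13.3, 22.6 and 12.8 (-3.29 ± 0.46). The 8 natural killer cell markers summed to 22.2 to 85.3 in RPM_d7_vavCre and 101 to 976 in RPM_d7_WT. In marrow they summed to 2.26 to 1159 in BMM_d7_vavCre and 72.4 to 703 in BMM_d7_WT, and their part in these values was not tested. The sum was 6.31 to 22.2 in RPM_d7_Spic_WT, with 4 of the 8 markers at 0 throughout. In RPM_d7_Spic_KO it was lower without overlap, at most 0.501, with 7 of the 8 at 0. The part of these markers in the Sh2d1b1 values was not tested there either. In adults the sum was 35.1 to 44.1 in RPM_TAM_WT and 11.1 to 78.3 in RPM_TAM_CreERT2.

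Sh2d1b2, the neighbouring near copy of Sh2d1b1, ends 23.7 kb before it, and 13.4% of the 50-base stretches of Sh2d1b1 occur in it. It was at 0 in 11 of the 12 libraries of the first table. Its means in the other table were 10.7 ± 3.58 in RPM_d7_Spic_WT, 6.06 ± 4.18 in RPM_d7_Spic_KO, 4.75 ± 0.95 in RPM_TAM_WT and 0.55 ± 1.11 in RPM_TAM_CreERT2. It passed the test in neither of those genotype comparisons (limma adjusted p = 0.778 and 0.668).

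Ubd (ENSMUSG00000035186, chromosome 17, 37193892 to 37196095, plus strand) encodes FAT10, a ubiquitin-like modifier that marks proteins for the proteasome and is induced by interferon-γ and tumour necrosis factor. Wild-type spleen held 107.6, 51.5 and 77.1, and wild-type marrow 207.1, 107.8 and 131.7. In vavCre spleen it held 2.46, 1.70 and 0, from 6 reads in all, and vavCre marrow held 0 reads. The log2 change in spleen was -5.18 ± 0.91, and the marrow level was at least 26.7-fold lower. RPM_d7_Spic_WT held 13.9, 11.2 and 61.2, and both RPM_d7_Spic_KO libraries held 0 reads, at least 18.8-fold lower. Adult controls held 81.7 and 31.1, and RPM_TAM_CreERT2 6.82, 0, 0 and 1.28 (-4.65 ± 1.10). With 1 library left out, the adult value of Ubd ran from -5.33 (without RPM_TAM_WT replicate 3) to -3.97 (without RPM_TAM_WT replicate 1), and the Spic_KO value, -4.49, was -3.75 without RPM_d7_Spic_WT replicate 3. The RPM_d7_Spic_WT libraries held 276 Ubd reads in all and the RPM_TAM_WT libraries 186, and 1 of the 3 pup controls was well above the others.

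Snx31 (ENSMUSG00000013611, chromosome 15, 36504062 to 36555573, minus strand) encodes a sorting nexin, a kind of protein that binds phosphoinositides on endosomes and sorts membrane cargo. Per kilobase it was the lowest of the 10 genes in wild-type spleen (30.4). Wild-type spleen held 134.1, 83.9 and 49.3, and vavCre spleen 0.614, 1.70 and 0. The vavCre spleen libraries held 3 reads in all against 431, a ratio of 116 with a 95% counting interval of 39.4 to 564. Wild-type marrow held 2.01, 6.13 and 4.18, and vavCre marrow 0, 0 and 2.26, ranges that overlapped, with 1 read against 12 (ratio 8.07, interval 1.19 to 345). RPM_d7_Spic_WT held 13.4, 7.01 and 15.2, and both RPM_d7_Spic_KO libraries held 0 reads, at least 7.78-fold lower. Adult controls held 23.7 and 11.6, and RPM_TAM_CreERT2 0, 0, 4.70 and 0 (-3.51 ± 1.05, and -4.14 without RPM_TAM_CreERT2 replicate 4).

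Differences between tissues and between control groups are given next. Their libraries are arms of the contrasts that chose the genes, which picks high wild-type and low vavCre levels. The p-values of the fit are therefore not independent of that choice, and nothing is read from the counts beside those of all genes. Between wild-type spleen and marrow, 4 of the 10 genes were called higher in spleen by limma with adjustment over all 15130 genes (2.07% of genes were). Hs3st2 stood at 670 ± 146 in spleen and 7.69 ± 4.76 in marrow (log2 difference 6.43, 95% CI 4.70 to 8.16, limma adjusted p = 0.000107). Slpi stood at 1194 ± 121 and 60.0 ± 52.9 (4.66, CI 2.95 to 6.37, limma adjusted p = 0.00223). Paqr9 stood at 2285 ± 338 and 1026 ± 216 (1.17, CI 0.69 to 1.64, limma adjusted p = 0.00584), and Snx31 at 89.1 ± 42.6 and 4.11 ± 2.06 (4.11, CI 2.10 to 6.12, limma adjusted p = 0.0187). All 3 spleen libraries were above all 3 marrow libraries for each of these 4 genes. The Snx31 call was lost without any 1 of RPM_d7_WT replicate 1 (limma adjusted p = 0.0839), RPM_d7_WT replicate 2 (0.0512), BMM_d7_WT replicate 1 (0.0861) and BMM_d7_WT replicate 3 (0.0579). It was also lost at a pseudocount of 0.1 (limma adjusted p = 0.211) and with edgeR under TMM (adjusted p = 0.0549) or RLE factors (0.0570), which called 3 genes higher. The Slpi call was lost at a pseudocount of 0.1 (limma adjusted p = 0.0540).

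No gene of the 10 was called lower in wild-type spleen than in marrow (1.82% of all genes were). None was lower at an unadjusted p under 0.05 in limma, edgeR or DESeq2 (0 each). The Ubd libraries of spleen (51.5 to 107.6) all lay below those of marrow (107.8 to 207.1). For Vstm4, Ear2, Sh2d1b1 and Glipr1 all spleen libraries lay above all marrow libraries. The 6 genes that did not pass differed by -0.92 (Ubd, CI -2.82 to 0.99) to 1.42 (Sh2d1b1, CI -0.56 to 3.40). Vstm4 (0.46, CI -0.90 to 1.82) and Slco2b1 (-0.17, CI -0.73 to 0.38) were near 0, and differences of the size in their intervals cannot be told from none. Sh2d1b1 and Ear2 passed when only the wild-type groups were fitted (limma adjusted p = 0.000397 and 0.0232).

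**Figure D5:**
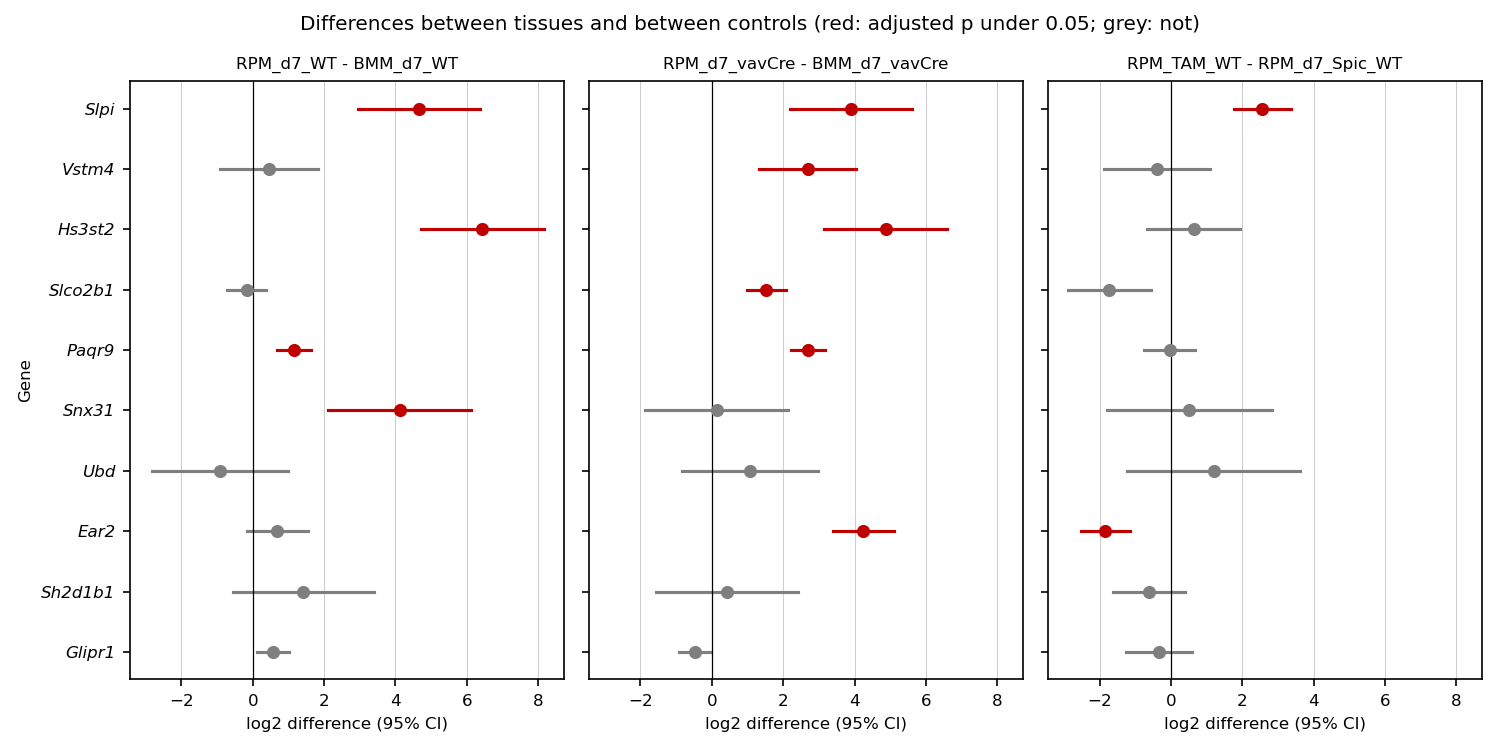
Log2 difference (points) with its 95% confidence interval (lines) for each gene between spleen and marrow in wild type (left), between spleen and marrow in vavCre (middle) and between adult and pup spleen controls (right), red where the adjusted p was under 0.05. All red points of both tissue panels lie to the right of 0, that is, higher in spleen.

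Between the libraries labelled vavCre, 6 of the 10 genes were called higher in spleen than in marrow (2.68% of all genes), under the same limit. These were Paqr9 (log2 difference 2.71, CI 2.23 to 3.19, limma adjusted p = 5.37e-07), Ear2 (4.24, CI 3.39 to 5.10, 3.2e-06), Hs3st2, Slco2b1, Slpi and Vstm4. Hs3st2 stood at 29.8 ± 12.1 in spleen and at 0 reads in marrow, at least 5.35-fold higher (limma adjusted p = 0.00157). Slco2b1 stood at 121 ± 8.17 and 43.9 ± 19.7 (1.53, CI 0.97 to 2.08, limma adjusted p = 0.00177). Slpi stood at 70.8 ± 16.9 and 6.62 ± 6.80 (3.90, limma adjusted p = 0.00961), and Vstm4 at 20.8 ± 7.51 and 3.83 ± 4.69 (2.68, limma adjusted p = 0.0257). For each of the 6, the 3 spleen libraries were above the 3 marrow libraries. The Slpi call was lost without RPM_d7_vavCre replicate 1 (limma adjusted p = 0.0513). That of Vstm4 was lost without RPM_d7_vavCre replicate 1 (0.0763), RPM_d7_vavCre replicate 3 (0.1001) or BMM_d7_vavCre replicate 1 (0.0610), and at pseudocounts of 0.1 (0.0545) and 5 (0.0562). With only the vavCre groups fitted, Slpi (limma adjusted p = 0.0793), Vstm4 (0.272) and Slco2b1 (0.201) did not pass. No gene was called lower (0.82% of all genes), and 1, Glipr1, was lower at an unadjusted p under 0.05 in limma (-0.48, CI -0.93 to -0.03, limma adjusted p = 0.259). edgeR and DESeq2 called 0 lower, also with 1 at an unadjusted p under 0.05. Whether the tissue difference changed with genotype was not tested, since that contrast is the difference of those that chose the genes.

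Adult controls were set against pup controls in spleen, RPM_TAM_WT against RPM_d7_Spic_WT. Age, colony and the treatment that TAM may stand for cannot be told apart in this comparison, and the adults had 2 libraries. Both groups were control arms of the contrasts that chose the genes. Slpi was higher in adults (2046 ± 815 against 351 ± 152, log2 difference 2.56, CI 1.76 to 3.36, limma adjusted p = 0.000647), with both adult libraries above all 3 pup libraries. Ear2 was lower (295 ± 139 against 1001 ± 135, -1.83, CI -2.53 to -1.14, limma adjusted p = 0.00348), with both adult libraries below the pups. Among all genes tested, 1.56% were higher and 1.86% lower. Both calls were lost without RPM_TAM_WT replicate 1 (limma adjusted p = 0.0816 for Slpi and 0.196 for Ear2), the library where Ear1 made up the larger share of the Ear pair. Slco2b1 stood at 153 ± 40.9 in adults and 504 ± 92.2 in pups and did not pass (-1.72, CI -2.89 to -0.56, limma adjusted p = 0.102). It was called lower by edgeR with TMM factors (adjusted p = 0.0275) and by DESeq2 (adjusted p = 0.00861). The other 7 genes differed by -0.61 (Sh2d1b1, CI -1.61 to 0.40) to 1.20 (Ubd, CI -1.22 to 3.61) and did not pass.

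To place the genes among their kin, 189 relatives in 10 families were listed from general knowledge, such as protease inhibitors for Slpi and sorting nexins for Snx31. These lists were made with earlier results of these data known, so the counts below are a description. In vavCre spleen 11 of the 143 relatives tested rose (7.69%, against 2.98% of all genes) and 4 fell (2.80%, against 2.54%). In vavCre marrow 13 rose (9.09%, against 3.41%) and 6 fell (4.20%, against 4.4%). In RPM_d7_Spic_KO 3 of 154 rose (1.95%, against 1.47%) and 6 fell (3.90%, against 2.48%). In RPM_TAM_CreERT2 limma called 0 higher and 0 lower (0.0601 and 0.0841% of all genes), with 4 higher and 9 lower at an unadjusted p under 0.05. There edgeR called 0 and 0, and DESeq2 1 and 1. Other scalings of the recovered reads shifted the split over all genes in RPM_d7_Spic_KO, from 245 higher and 413 lower in limma to 559 and 395 in edgeR with TMM factors and 655 and 380 with RLE factors.

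Among the protease inhibitors, 4 of 18 relatives of Slpi rose in vavCre spleen and 0 fell. Wfdc17, a small secreted protein with the same kind of domain as Slpi, rose from 1131 ± 68.0 to 11157 ± 566 in spleen (log2 change 3.30, limma adjusted p = 3.35e-12) and from 2199 ± 437 to 8197 ± 425 in marrow (1.91, limma adjusted p = 1.85e-08). It also rose in RPM_d7_Spic_KO, from 217 ± 38.7 to 2330 ± 457 (3.42, limma adjusted p = 2.85e-05). Both the cysteine protease inhibitor genes Cstb and Cst3 rose in vavCre spleen (0.83 and 0.63, limma adjusted p = 0.000169 and 6.32e-05). Each of these calls held when any 1 library was left out. Others of the family fell, named here after their values were seen. In vavCre marrow, where 3 rose and 1 fell, Serpinb1a went from 110 ± 61.0 to 3.12 ± 2.71 (-4.91, limma adjusted p = 0.000289). In RPM_d7_Spic_KO 1 rose and 2 fell. Serpina3g went from 162 ± 73.8 to 5.32 ± 1.68 (-4.60, limma adjusted p = 4.73e-06), and Serpinb6a from 1559 ± 214 to 620 ± 229 (-1.37, limma adjusted p = 0.00333), the latter lost without RPM_d7_Spic_KO replicate 2 (0.0940).

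Of 24 genes of heparan sulfate synthesis and editing tested in the first table, 2 rose in vavCre spleen and 0 fell, and 4 rose and 1 fell in marrow. Sulf2, an extracellular sulfatase of heparan sulfate, rose from 553 ± 51.9 to 1836 ± 260 in spleen (1.72, limma adjusted p = 1.69e-06). The proteoglycan gene Sdc4 rose from 410 ± 44.9 to 1423 ± 220 (1.79, limma adjusted p = 0.000429). Both also rose in marrow, Sulf2 by 0.81 (limma adjusted p = 0.00493) and Sdc4 by 1.77 (0.000473). Sdc3, another proteoglycan gene, fell by 0.48 in marrow (limma adjusted p = 0.0253), but did not pass once BMM_d7_vavCre replicate 1 (0.110), BMM_d7_WT replicate 3 (0.0562) or BMM_d7_WT replicate 1 (0.109) was left out.

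Of 14 SLAM receptor and adaptor genes tested, 0 rose and 1 fell in vavCre spleen, and 2 rose and 2 fell in marrow. Fyn, a kinase that the adaptor SAP recruits, fell from 1757 ± 317 to 564 ± 13.2 in spleen (-1.62, limma adjusted p = 0.000985) and from 1248 ± 182 to 106 ± 47.7 in marrow (-3.65, limma adjusted p = 7.21e-08). Slamf9, a SLAM family receptor, fell from 254 ± 76.4 to 37.9 ± 21.2 in marrow (-2.88, limma adjusted p = 0.000547). The phosphatase gene Ptpn6 rose there by 0.71 (limma adjusted p = 0.00352). In RPM_d7_Spic_KO the SLAM family gene Cd48, named here after its values were seen, fell from 559 ± 85.1 to 157 ± 16.3 (-1.82, limma adjusted p = 0.0033).

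Of 29 sorting nexins tested, 4 rose and 2 fell in vavCre spleen, and 2 rose and 1 fell in marrow. Snx10 fell from 1581 ± 45.5 to 589 ± 68.8 in spleen (-1.43, limma adjusted p = 5.47e-05), and Snx2 rose by 0.76 in spleen (0.00349) and 0.80 in marrow (limma adjusted p = 0.00212). Snx3 rose by 0.81 in spleen (limma adjusted p = 0.00256) and by 0.68 in marrow (limma adjusted p = 0.00952), the latter lost without BMM_d7_WT replicate 1 (0.0524). Of 5 relatives of Ear2 tested, 1 fell in vavCre spleen. Rnase4 went from 1260 ± 321 to 654 ± 74.7 (-0.92, limma adjusted p = 0.0121), lost without RPM_d7_WT replicate 3 (0.0843) or RPM_d7_vavCre replicate 2 (0.0627).

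Few relatives of the other genes passed. Of 11 V-set genes tested, 1 rose in vavCre spleen, Vsig4, a complement receptor (8.37 ± 2.51 to 166 ± 118, 3.83, limma adjusted p = 0.0402). It did not pass with any 1 library left out of RPM_d7_WT replicate 1, 2 or 3 or RPM_d7_vavCre replicate 2 or 3 (limma adjusted p = 0.0963 to 0.194). In RPM_d7_Spic_KO 0 of 13 V-set genes rose and 2 fell, both named after their values were seen. Cd86, a costimulatory ligand, went from 1066 ± 169 to 253 ± 110 (-2.13, limma adjusted p = 0.000606; highest 0.00633 with 1 library left out). Vsig10l went from 35.8 ± 15.1 to 1.00 ± 1.42 (-4.33, limma adjusted p = 0.0152), lost under a replicate block (0.0988) and without RPM_d7_Spic_KO replicate 2 (0.117), RPM_d7_Spic_WT replicate 1 (0.106) or RPM_d7_Spic_WT replicate 3 (0.0567). Of 9 PAQR genes, 1 rose in marrow, Paqr7 (50.4 ± 7.10 to 175 ± 42.5, 1.76, limma adjusted p = 0.0215), lost without BMM_d7_WT replicate 1 (0.0614) or BMM_d7_vavCre replicate 2 (0.0737). Of 22 genes of the FAT10 list, Sqstm1 rose and Ube2l6 fell in marrow, by 0.56 and -0.77 (limma adjusted p = 0.0243 and 0.0417), each lost without any 1 of 4 libraries (highest limma adjusted p = 0.109 and 0.193). Of 7 organic anion transporters and 4 CAP genes tested in the first table, 0 rose or fell in either vavCre comparison.

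Genes whose log2 values followed each of the 10 most closely over the 12 libraries of the first table were found among 10701 genes with a mean of at least 20. These correlations describe 12 libraries that share 4 groups, 3 to a group, and have no p. Vstm4 was nearest to Slco2b1 (Pearson r = 0.987), then to Itgad (0.979) and Susd1 (0.972). Slco2b1 was in turn nearest to Vstm4, then to Oaf (0.986) and Pld3 (0.983), and Ubd also had Slco2b1 as its nearest gene (0.978). Ear2 was nearest to Vcam1 (0.971) and Paqr9 (0.966), and Paqr9 to Kcnj10 (0.978), Fyn (0.977) and Crip2 (0.975). Sh2d1b1 was nearest to Cd36 (0.981) and Fgr (0.966), Hs3st2 to Cd44 (0.971) and Ptgs1 (0.968), and Slpi to Sac3d1, Pecam1 and Itgb2 (each 0.967). Glipr1 was nearest to Cela1 (0.966) and Fxyd5 (0.965), and Snx31 had the weakest likeness, to Hprt (0.944).

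Per kilobase of exon, the order of the 10 genes changed between groups. In wild-type spleen of the first table it began with Ear2 (4774), Glipr1 (1050) and Slpi (1012) and ended with Hs3st2 (220), Ubd (84.6) and Snx31 (30.4). In vavCre spleen Ear2 (804) and Glipr1 (267) still led, but Sh2d1b1, the fifth in wild type at 533, stood at 5.98. In vavCre marrow Glipr1 (371) led, ahead of Ear2 (54.6). In the other table Slpi led both adult groups, at 1733 in controls and 322 in RPM_TAM_CreERT2, and Ear2 led both pup groups, at 1392 in RPM_d7_Spic_WT and 675 in RPM_d7_Spic_KO. These levels per kilobase divide by the summed exon length of GENCODE and do not correct for 3′ bias of oligo-dT priming.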

How the data were processed

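Messenger RNA was captured by oligo-dT from 1000 sorted cells per library, amplified and tagmented, per the labels' protocols. Each table the authors deposited holds a signal per gene and library, namely read counts they had normalised, with STAR, edgeR and GRCm38 named in the submitters' processing notes without roles. No header names the unit. The value of a single read was found for every library. Of the values up to 500 reads, 97.7 to 100% per library (vavCre table) and 96.4 to 100% (Spic and adult table) then lay within 0.1 of a whole read. Read totals above are these recovered reads.

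Groups came from the labels. Genes that reached a value of 1 in 2 or more libraries were tested on log2(value + 1), a pseudocount of 1, with limma 3.58.1 in R 4.3.3 (limma-trend, robust, 1 mean per group over all libraries of a table, two-sided), and called at a Benjamini-Hochberg adjusted p under 0.05 over all genes tested. The script was tested on simulated data. The 10 genes, the families and the marker lists were chosen with earlier results of these data known. Named relatives were the up to 3 with the smallest adjusted p per family among those called in a vavCre comparison, plus near copies of Ear2 and Sh2d1b1 and, per gene, the 3 most alike. Identifiers matched GENCODE vM21 for 22291 and 25664 genes, and promoters came from RefSeq (GRCm38.p6). Bounds on folds set a library with no read to 3 reads, and counting intervals are at 95%, exact, conditional on the reads of both groups. PCR reads are not independent molecules, so both cover counting error only.

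Alternatives were no filter, a strict filter of 10, pseudocounts of 0.1 and 5, the compared groups only, a replicate block, each library left out, and edgeR 4.0.16 (TMM or RLE factors) and DESeq2 1.42.0 on the recovered reads. On these reads edgeR with TMM called 887 genes in vavCre spleen and 1023 in vavCre marrow, against 835 and 1182 in limma, 954 in Spic_KO against 658, and 28 in adults against 24.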

Additional observations from a re-analysis of the deposited data

Results flagged for a closer look

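In groups of 4 libraries, the highest or lowest value was checked against the rest with Dixon's ratio, which by chance flags about 1 in 20 groups. Of the 10 genes in RPM_TAM_CreERT2, 2 were flagged, both by replicate 4. Snx31 was 4.704 in that library (5 reads) and 0 in the other 3. Sh2d1b1 was 22.58 in it, against 12.5, 13.3 and 12.8 in the others, still below both adult controls.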

How the results depend on the processing

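Of 1282 values under an alternative, 1150 kept their direction and their side of the threshold or moved by less than the spread, and 15 reversed. Each reversed value was of a gene that did not pass the test, and the cause was not tested. Between spleen and marrow in vavCre, Sh2d1b1 was -0.068 with a pseudocount of 5, -0.62 with edgeR TMM, -0.64 with edgeR RLE and -0.65 with DESeq2. With a library left out it ran from -1.29 to 1.44, and Snx31 from -0.22 to 0.71. Between adult and pup controls Paqr9 was 0.10 with edgeR RLE and with DESeq2, and with a library left out it ran from -0.36 to 0.28, Vstm4 from -0.78 to 0.0097 and Glipr1 from -0.81 to 0.15. Genes called higher in wild-type spleen against marrow numbered 2 at a pseudocount of 0.1. In vavCre they numbered 3 with the compared groups only. With a library left out these counts ran from 3 to 4 and from 4 to 6. Genes called lower in adult controls numbered 2 with the compared groups only, edgeR TMM, edgeR RLE and DESeq2, where Slco2b1 was added, and 0 to 1 with a library left out, as did those called higher. Genes at -2 or lower in adults numbered 4 to 7 with a library left out.

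With a library left out, relatives that rose numbered 7 to 10 in vavCre spleen, 8 to 11 in vavCre marrow, 1 to 10 in Spic_KO and 0 to 1 in adults, and those that fell 2 to 4, 3 to 6, 4 to 9 and 0. In Spic_KO 6 rose with edgeR TMM, 7 with edgeR RLE and 14 with DESeq2, and 13 fell with DESeq2. In adults 1 rose and 1 fell with DESeq2. Over all genes, DESeq2 called 1290 in vavCre spleen, 966 between wild-type tissues (588 in limma), 963 between vavCre tissues (529), 1744 in Spic_KO (658), 135 in adults (24) and 1274 between controls (569). The compared groups alone gave 1367 in vavCre spleen, 742 in marrow, 37 in adults and 1637 between controls. In adults no filter gave 5 and pseudocounts of 0.1 and 5 gave 14 and 9. Higher calls made up 76.6% between tissues in vavCre and 61.5% with DESeq2, and 45.7% between controls, 62.1% with edgeR RLE and 60.0% with DESeq2. In Spic_KO they made up 37.2%, 58.6% with edgeR TMM, 63.3% with edgeR RLE and 53.8% with DESeq2, and in adults 41.7%, and 28.6% with edgeR TMM. edgeR RLE moved the median of all genes in adults by 0.11.

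Libraries with the same replicate number showed no shared deviation, with correlations from -0.054 to 0.094. With so few libraries per group, that cannot show whether they were paired. Under a replicate block, relatives that rose in Spic_KO numbered 1, calls over all genes went from 658 to 219 in Spic_KO and from 569 to 290 between controls, and no call of the 10 genes changed. No block was fitted for the adult genotypes, which share 1 number. With 2 libraries in RPM_d7_Spic_KO and RPM_TAM_WT, and 0.693 M reads in the shallowest library, differences in genes of few reads such as Snx31 and Ubd were not detectable beyond the intervals given.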
